A study of Homo sapiens with 3 samples.

Results

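Long noncoding RNA (lncRNA) genes were examined in H2087 cells, a line established from a human lung adenocarcinoma, through the peaks of 2 histone marks at their starts. A peak was a member when its edge lay within 1 kb of the start of a lncRNA gene and more than 3 kb from every annotated transcript start of a protein-coding gene, in GENCODE 44 on hg19. Of the 42681 peaks in both lists, 1220 (2.86%) met this rule. They were 552 of 18585 peaks for H3K4me3 (2.97%, 95% interval 2.73% to 3.22%) and 668 of 24096 for H3K27ac (2.77%, 2.57% to 2.99%). They reached 914 lncRNA genes, of which 242 had members of both marks, 308 of H3K4me3 alone and 364 of H3K27ac alone. Because lncRNA starts can lie close together, 162 members were within 1 kb of more than 1 such start.

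Chromatin of untreated H2087 cells was immunoprecipitated with an antibody against histone H3 trimethylated at lysine 4 (H3K4me3) or acetylated at lysine 27 (H3K27ac). Each mark was represented by 1 library, and an input library without antibody was not analysed here. No value therefore has a replicate, no test was made, and the exact 95% intervals given with shares cover counting error only. Read depth is unknown from peak lists, and an unmarked start may be one that drew too few reads.

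A lncRNA gene yields a transcript that is not known to encode a protein, and some of these transcripts act in the nucleus or serve as precursors of small RNAs. H3K4me3 is typical of active or poised promoters, many of which lie in CpG islands. H3K27ac occurs at active promoters and at active enhancers, and enhancers are themselves transcribed into short noncoding RNAs.

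The sequence around the starts differed with the mark found within 1 kb, and 5 windows are shown for it. Each runs from 250 bases before to 50 bases after the annotated start, on hg19 and in the direction of transcription, with every CG dinucleotide in capitals. The peaks named below for these 5 genes lay within 1 kb of the start but outside these windows, so the sequences shown are not those of peaks. NEAT1 (chr11:65189995-65190294, plus strand) and MIRLET7IHG (chr12:62996282-62996581, plus strand) had both marks, and their windows held 21 and 27 CG. LINC01714 (chr1:8261328-8261627, plus strand) and LINC03033 (chr14:62036873-62037172, plus strand) had H3K27ac alone, with 4 and 3 CG. MALAT1 (chr11:65264861-65265160, plus strand) is shown because it went against this order, with H3K27ac alone and 34 CG.
NEAT1: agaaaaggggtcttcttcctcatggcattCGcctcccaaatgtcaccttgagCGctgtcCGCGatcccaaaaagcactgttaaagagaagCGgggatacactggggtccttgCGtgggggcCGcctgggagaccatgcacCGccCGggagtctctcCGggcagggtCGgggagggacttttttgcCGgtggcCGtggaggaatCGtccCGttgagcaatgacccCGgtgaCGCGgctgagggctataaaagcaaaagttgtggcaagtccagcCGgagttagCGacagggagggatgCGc
MIRLET7IHG: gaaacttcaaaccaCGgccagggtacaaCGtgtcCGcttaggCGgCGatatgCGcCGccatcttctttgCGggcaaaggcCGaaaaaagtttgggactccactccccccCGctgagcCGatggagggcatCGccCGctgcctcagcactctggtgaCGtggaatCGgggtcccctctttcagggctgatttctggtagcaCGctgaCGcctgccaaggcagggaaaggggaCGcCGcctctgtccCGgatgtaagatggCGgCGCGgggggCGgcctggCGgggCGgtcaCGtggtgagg
LINC01714: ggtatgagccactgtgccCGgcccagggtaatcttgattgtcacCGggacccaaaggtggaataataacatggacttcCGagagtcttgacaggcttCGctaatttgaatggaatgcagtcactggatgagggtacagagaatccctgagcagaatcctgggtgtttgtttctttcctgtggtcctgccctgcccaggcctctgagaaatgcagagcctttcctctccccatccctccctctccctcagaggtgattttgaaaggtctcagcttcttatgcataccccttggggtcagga
LINC03033: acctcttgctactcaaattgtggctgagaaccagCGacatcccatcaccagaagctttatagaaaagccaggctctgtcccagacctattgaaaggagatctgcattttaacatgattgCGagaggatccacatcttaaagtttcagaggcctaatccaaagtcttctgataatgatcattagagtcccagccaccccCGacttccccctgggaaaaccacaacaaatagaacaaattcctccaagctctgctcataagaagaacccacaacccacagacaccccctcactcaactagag
MALAT1: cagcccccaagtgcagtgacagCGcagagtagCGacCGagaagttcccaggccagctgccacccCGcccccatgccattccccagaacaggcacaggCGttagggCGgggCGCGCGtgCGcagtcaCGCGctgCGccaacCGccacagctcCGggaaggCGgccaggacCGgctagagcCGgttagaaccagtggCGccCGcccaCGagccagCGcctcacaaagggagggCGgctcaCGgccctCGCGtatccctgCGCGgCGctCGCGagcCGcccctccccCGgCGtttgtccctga

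Starts with H3K4me3 held more CpG than the other starts whether or not H3K27ac was present, and starts with H3K27ac alone held less than those with H3K4me3. CpG content is given as the observed/expected ratio, which is the number of CG over the number that the C and G content alone would give. Its median was 0.684 at the 248 lncRNA starts with both marks and 0.692 at the 305 with H3K4me3 alone. It was 0.288 at the 371 starts with H3K27ac alone and 0.225 at the 12322 with neither mark. The starts with H3K27ac alone thus lay nearer to the unmarked ones than to those with H3K4me3, and above the unmarked ones. Their median G+C content was 54.7%, against 45.7% at unmarked starts. A window with at least 55% G+C and a ratio of at least 0.65 was called CpG-rich, as were 47.2% of the windows with both marks (40.8% to 53.6%) and 47.2% with H3K4me3 alone (41.5% to 53%). The share was 12.9% with H3K27ac alone (9.70% to 16.8%) and 5.49% with neither (5.09% to 5.90%). At protein-coding gene starts the same 4 shares were 73.9%, 72.0%, 52.8% and 30.7%, so that starts with H3K27ac alone were more often CpG-rich there than at lncRNA genes.

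**Figure D1:**
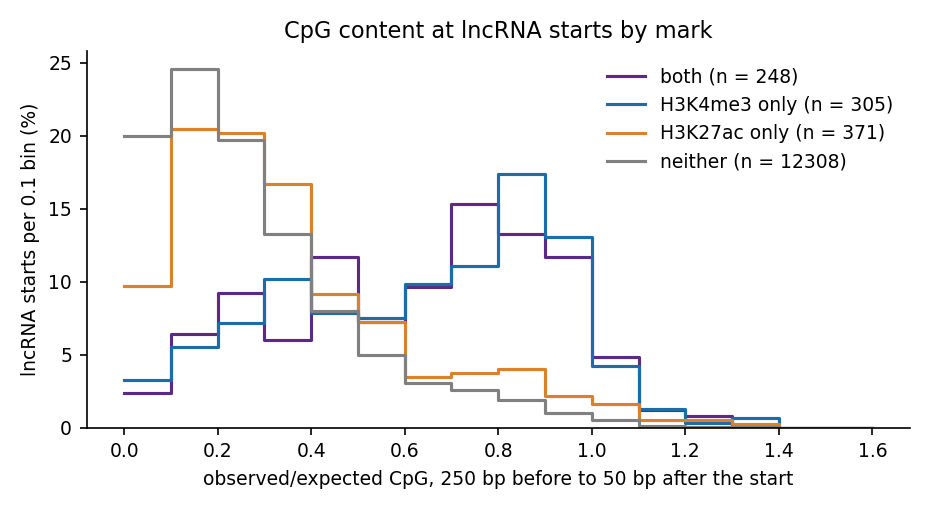
Distribution of the observed/expected CpG ratio (horizontal axis, bins of 0.1) over lncRNA starts more than 3 kb from protein-coding transcript starts, as a share of the starts in each mark group (vertical axis, %). The lines with H3K4me3, with or without H3K27ac, peak between 0.7 and 0.9, and the line with H3K27ac alone peaks between 0.1 and 0.3, with fewer starts below 0.1 than the unmarked line (9.7% against 20%). The ratio is undefined for the few unmarked windows without C or G, so n is 12308 there.

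The peaks themselves showed the same difference. Over the length of each peak, the median observed/expected CpG ratio was 0.607 for H3K4me3 members and 0.313 for H3K27ac members. H3K27ac members that overlapped an H3K4me3 peak had a median of 0.580 and those without overlap 0.263. The latter value lay near the 0.240 of the H3K27ac peaks that were near no lncRNA or protein-coding start by these limits. H3K4me3 members without H3K27ac overlap, in contrast, had a median of 0.623, close to the 0.636 of H3K4me3 peaks near protein-coding starts.

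Short promoter motifs were searched by exact letters on both strands of the same windows. The GC box, GGGCGG, recognised by Sp/KLF factors, was found in 55.6% of windows with both marks, 51.5% with H3K4me3 alone, 25.6% with H3K27ac alone and 11.3% with neither, against 13.5% of all 13246 windows. The ETS motif CCGGAAG was found in 8.06%, 9.18%, 3.77% and 2.87% of the windows in the same order of groups, against 3.14% of all windows. The cAMP response element TGACGTCA was found in 3.63%, 3.93%, 1.62% and 0.463% of the windows in the same order of groups, against 0.634% of all. These motifs each hold a CG, so their shares are not independent of the CpG content. The AP-1 motif TGANTCA, where N is any base, holds none. It was found in 16.2% of windows with H3K27ac alone (12.6% to 20.3%) and 14.9% with both marks (10.7% to 20%), but in 7.87% with H3K4me3 alone (5.11% to 11.5%) and 11.6% of all. AP-1 letters were thus more frequent at starts with H3K27ac alone than at starts with H3K4me3 alone, while the intervals for both marks and for H3K4me3 alone overlapped. At protein-coding starts the AP-1 shares were 8.04% with H3K27ac alone, 4.0% with both marks and 3.97% with H3K4me3 alone. The TATA box TATAAA was found in 6.89% to 8.06% of windows in the 3 marked groups and in 19.6% of unmarked ones, and the CCAAT box in 29.4% to 37.0% of marked and 37.5% of unmarked windows. TATAAA holds no C or G, and TGANTCA holds more A and T than C and G, so the shares of these motifs are not independent of the G+C content. The median G+C was 61.2% with both marks, 60.7% with H3K4me3 alone, 54.7% with H3K27ac alone and 45.7% with neither. None of these motifs contains another. A match to such letters is a description of the sequence and not a bound site.

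Among the lncRNA starts more than 3 kb from protein-coding transcript starts, few were marked. H3K4me3 lay within 1 kb of 553 of 13246 starts (4.17%, 3.84% to 4.53%), H3K27ac of 619 (4.67%, 4.32% to 5.05%) and both of 248 (1.87%, 1.65% to 2.12%). These counts exceed those of genes with members because a start can be over 3 kb from protein-coding transcript starts while its peak is not. Of 20163 protein-coding gene starts, 38.2% had H3K4me3 and 23.6% H3K27ac. The 5456 lncRNA starts within 3 kb of a protein-coding transcript start were marked nearly as often as these, at 35.4% and 23.8%. H3K4me3 was thus the more frequent mark at protein-coding starts, and no more frequent than H3K27ac at lncRNA starts away from them.

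The marks were paired unequally at lncRNA starts. Of lncRNA starts with H3K4me3, 44.8% also had H3K27ac (40.6% to 49.1%), near the 48.6% of protein-coding starts (47.5% to 49.7%). Of lncRNA starts with H3K27ac, however, 40.1% also had H3K4me3 (36.2% to 44%), against 78.8% of protein-coding starts (77.6% to 80.0%). This share followed CpG content. Of 165 CpG-rich lncRNA starts with H3K27ac, 70.9% had H3K4me3 (63.3% to 77.7%), and of the 454 other lncRNA starts with H3K27ac, 28.9% (24.7% to 33.3%). The corresponding shares at protein-coding starts were 83.9% and 67.3%, so that the difference between the gene types was 13.0 percentage points for CpG-rich starts and 38.4 points for the others. The reverse share did not move with CpG. H3K27ac was found at 44.8% of CpG-rich lncRNA starts with H3K4me3 (38.7% to 51.1%) and at 44.9% of the others (39.1% to 50.8%).

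CpG-rich lncRNA starts were marked more often in all. Of 985 such starts, 26.5% had H3K4me3 (23.8% to 29.4%) and 16.8% had H3K27ac (14.5% to 19.2%). Of the 12261 others, 2.38% had H3K4me3 and 3.70% H3K27ac. CpG-rich protein-coding starts reached 58.1% and 34.1%.

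**Figure D2:**
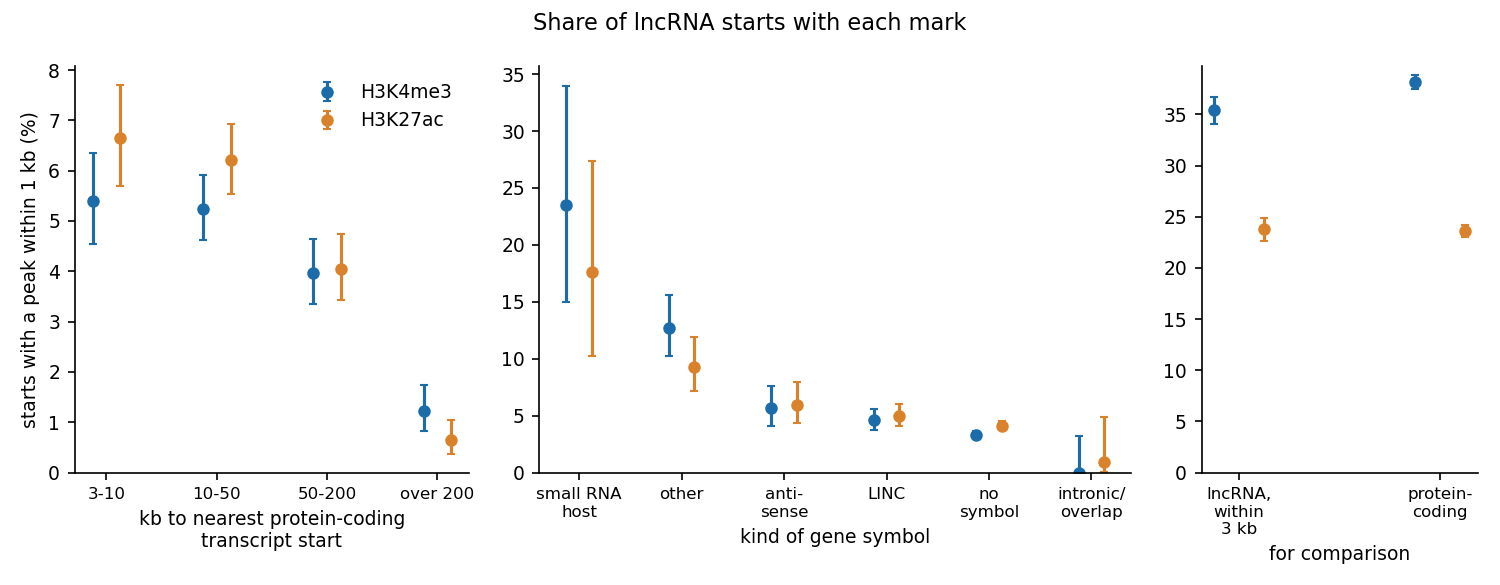
Share of lncRNA starts with a peak within 1 kb (vertical axes, %), by distance to the nearest protein-coding transcript start (left) and by kind of gene symbol (middle), with lncRNA starts within 3 kb and protein-coding gene starts for comparison (right). Points are H3K4me3 and H3K27ac, bars are exact 95% intervals, and the scales differ between panels. Small RNA host genes lie highest among the kinds of symbol, at 23.5% and 17.6%, and starts over 200 kb away lie lowest among the distances, at 1.22% and 0.65%.

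Kinds of lncRNA genes, sorted by their symbols alone, differed in how often they were marked. Of 85 host genes of small RNAs (symbols MIR...HG and SNHG), 20 had H3K4me3 (23.5%, 15.0% to 34.0%), 15 had H3K27ac (17.6%) and 13 had both. Other named genes outside the systematic series reached 12.7% and 9.31% of 612. Genes with an antisense symbol (5.69% and 5.96% of 738) and LINC genes (4.59% and 5.01% of 2134) lay close to the share of all starts. Genes without a proper symbol were marked least often among the large groups, with H3K4me3 at 3.29% (2.94% to 3.66%) and H3K27ac at 4.12% (3.73% to 4.54%) of 9556. Of 112 genes whose symbol ends in -IT or -OT, for intronic or overlapping transcripts, 0 had H3K4me3, with an upper bound of 3.24%, and 1 had H3K27ac. Symbols without the hyphen, such as KCNQ1OT1, are not in this group. Genes tagged as overlapping a pseudogene had H3K4me3 at 12% of 709 starts (9.69% to 14.6%), against 3.73% of the 12537 untagged ones.

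Marked starts lay nearer to protein-coding genes. The median distance to a protein-coding transcript start was 25.7 kb for starts with both marks, 26.6 kb with H3K4me3 alone and 22.1 kb with H3K27ac alone, against 43.7 kb with neither. Within 3 to 10 kb of a protein-coding transcript start, H3K4me3 was found at 5.40% of lncRNA starts and H3K27ac at 6.65%. From 50 to 200 kb these shares were 3.96% and 4.05%, and beyond 200 kb 1.22% and 0.65%. Where the nearest protein-coding start itself had H3K4me3, 7.30% of lncRNA starts had H3K27ac (6.55% to 8.10%), against 3.35% where it had none (2.98% to 3.75%). For H3K4me3 the shares were 5.68% and 3.42%. From 10 to 50 kb the same held, with H3K27ac at 9.55% against 4.41% and H3K4me3 at 7.01% against 4.28%, while beyond 200 kb the H3K4me3 shares were 1.16% and 1.24%. H3K27ac was found there at 9 of 687 starts (1.31%, 0.601% to 2.47%) against 7 of 1773 (0.395%, 0.159% to 0.812%), with intervals that overlapped. Starts inside a protein-coding gene on the same strand had H3K4me3 in 1.55% and H3K27ac in 3.4% of 1030 cases, and starts outside protein-coding genes in 4.97% and 5.01% of 9614. Starts inside a protein-coding gene on the opposite strand, whatever their symbol, had H3K4me3 in 2.26% (1.71% to 2.91%) and H3K27ac in 3.88% of 2527 cases.

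Marked genes also differed in their annotation. Several transcripts were annotated for 56.9% of genes with both marks, 54.1% with H3K4me3 alone, 35.0% with H3K27ac alone and 32.5% with neither. In this respect too the genes with H3K27ac alone resembled the unmarked ones. Chromosomes varied as well, and some are named here after their values were seen. On chromosome 7, H3K4me3 was found at 53 of 620 lncRNA starts (8.55%, 6.47% to 11%) and both marks at 5.16% (3.56% to 7.21%), while 38.4% of its protein-coding starts had H3K4me3, as in the whole genome. On chromosome 18, each mark was found at 1 of 422 lncRNA starts (0.237%, 0.00600% to 1.31%), and there H3K4me3 was also rare at protein-coding starts, at 10.9% of 266. Chromosome X was as low, with H3K4me3 at 0 of 260 lncRNA starts (upper bound 1.41%) and H3K27ac at 1. On chromosome Y, 0 of 95 had either mark. Protein-coding starts were not counted separately on chromosomes X and Y, so these low shares cannot be called particular to lncRNA starts. Some stretches of X had no peak at all, and the H3K4me3 peak nearest to MIR325HG was 21400 kb from its start.

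In median width the members were closer to peaks within 3 kb of protein-coding starts than to the remaining peaks. The limits of the groups differ (1 kb and 3 kb), and both are measured from the peak edge, which a wide peak brings within a limit more easily. The median width of H3K4me3 members was 309 bp (quartiles 233 to 428.5 bp), between the 334 bp of peaks within 3 kb of protein-coding starts and the 246 bp of the remaining H3K4me3 peaks. H3K27ac members had a median of 309.5 bp, against 297 bp and 273 bp. Peaks of at least 1 kb made up 2.54% of H3K4me3 members (1.39% to 4.22%) and 0.389% of the remaining H3K4me3 peaks (0.227% to 0.623%). For H3K27ac they made up 2.69% of members (1.6% to 4.23%), 1.5% of peaks near protein-coding starts and 1.01% of the remaining ones. The −log10 q, which the peak caller gives as the strength of a peak within its own list and which is not comparable between the lists, had a median of 2.98 in H3K4me3 members, against 3.18 near protein-coding starts and 2.29 elsewhere. In H3K27ac members it was 2.82, the same as near protein-coding starts, against 2.48 elsewhere.

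The marks differed in how their members overlapped. At least 1 bp of a peak of the other mark was found under 33.2% of H3K4me3 members (29.2% to 37.3%), as near protein-coding starts (33.7%), and under 22.4% of the remaining H3K4me3 peaks. Of H3K27ac members, 26.8% overlapped H3K4me3 (23.5% to 30.3%), which lay between the 41.8% near protein-coding starts (40.8% to 42.7%) and the 7.84% elsewhere (7.37% to 8.33%).

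**Figure D3:**
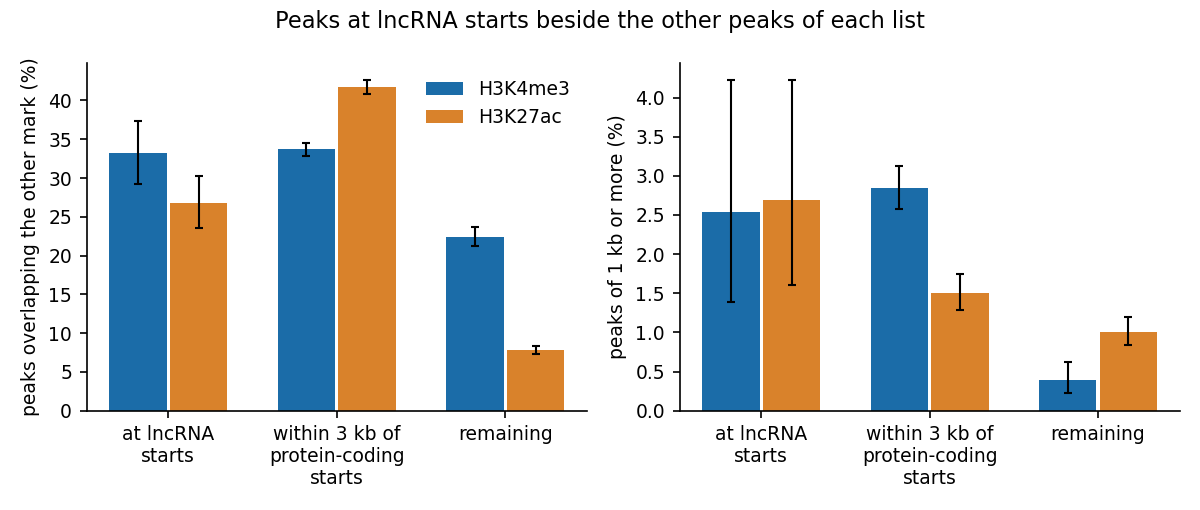
Share of peaks overlapping a peak of the other mark by at least 1 bp (left) and share of peaks of at least 1 kb (right), both in %, for peaks at lncRNA starts, within 3 kb of protein-coding transcript starts and remaining, with exact 95% intervals. H3K27ac peaks at lncRNA starts, at 26.8%, stand between 41.8% and 7.84%, and H3K4me3 peaks at lncRNA starts match those near protein-coding starts.

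Relative to the direction of transcription, H3K4me3 members lay mostly downstream of the lncRNA start. Their centre was downstream in 64.5% (60.3% to 68.5%), at a median of 246 bp. The bin from 200 to 400 bp alone held 137 of the 552 centres (24.8%), against 42 in the bin from 0 to 200 bp and 65 from 400 to 600 bp. H3K27ac members were spread more evenly, with 57.6% downstream (53.8% to 61.4%), a median of 143.5 bp and 13.2% in the bin from 200 to 400 bp. H3K27ac members that overlapped H3K4me3 were downstream in 67.6% (60.2% to 74.4%) and those without overlap in 54.0% (49.5% to 58.5%). H3K27ac members without H3K4me3 overlap were therefore placed almost evenly on either side of the start, although some of them had H3K4me3 within 1 kb. H3K4me3 members without H3K27ac overlap stayed downstream in 63.7% (58.5% to 68.6%). Around protein-coding gene starts, 75% of H3K4me3 and 69.8% of H3K27ac peaks within 1 kb were downstream.

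**Figure D4:**
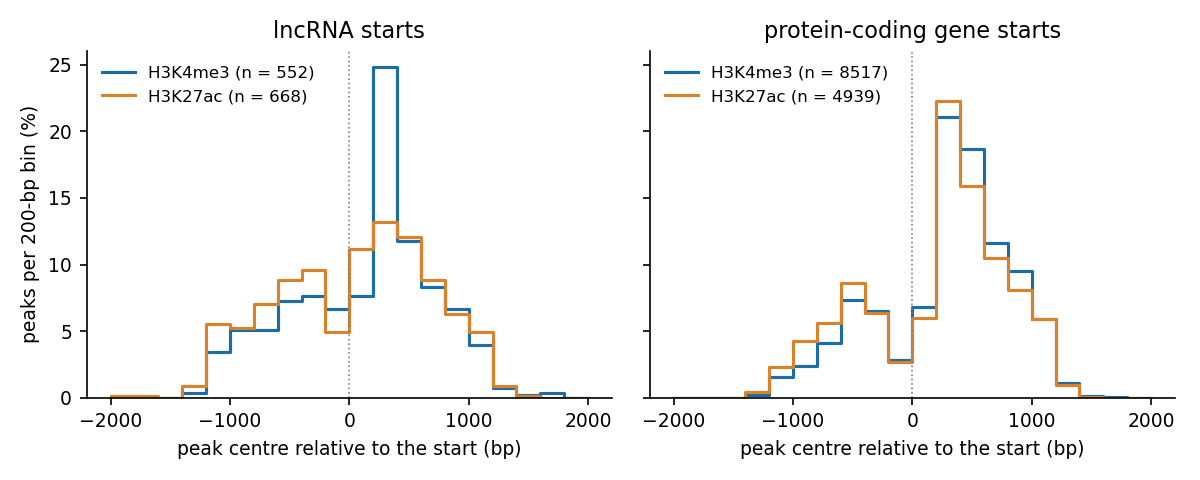
Position of peak centres relative to gene starts (horizontal axis, bp, positive in the direction of transcription), as a share of peaks per 200-bp bin (vertical axis, %), for peaks at lncRNA starts (left) and peaks within 1 kb of protein-coding gene starts (right). At lncRNA starts H3K4me3 rises to 24.8% from 200 to 400 bp downstream, while H3K27ac reaches 13.2% there and is lower just upstream of the start, at 4.94%.

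The start itself was covered by 12.1% of H3K4me3 and 12.3% of H3K27ac members, and the edge lay 1 to 500 bp away in 59.6% and 55.1%. An exon of a lncRNA gene was overlapped by 58.3% of H3K4me3 members (54.1% to 62.5%) and 47.5% of H3K27ac members (43.6% to 51.3%). The members overlapped a protein-coding gene by at least 1 bp in 14.3% (11.5% to 17.5%) and 22.2% (19.1% to 25.5%), in the same order. These exon and gene shares were not computed for the other peaks of the lists. The median distance to the nearest protein-coding transcript start was 25.3 kb and 24.4 kb. With the edge in the last 100 bp inside the 1 kb limit lay 31 H3K4me3 and 48 H3K27ac peaks with a median −log10 q of 2.61 and 2.60, and in the 100 bp beyond it 16 and 51 peaks with 2.66 and 2.62.

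Of the 5 H3K4me3 members with the highest −log10 q, 3 lay on the long arm of chromosome 12, as did 2 of the 5 strongest H3K27ac members and 2 of the 5 widest of each mark. The H3K4me3 peak with the highest −log10 q among members (28.6) covered the start of ENSG00000245651 (chr12:58290056-58291012). It lay inside the H3K27ac interval that was both the strongest and the widest H3K27ac member, with a −log10 q of 25.8 and a width of 6343 bp over 18 summits, at ENSG00000273805 (chr12:58284671-58291013). AGAP2-AS1, antisense to AGAP2, followed for H3K4me3 with 19.8 and a width of 1882 bp (chr12:58119169-58121050), and GIHCG with 18.6 at a 341-bp peak (chr12:58329558-58329898) without H3K27ac overlap. At ENSG00000257953 a 3252-bp H3K27ac peak (chr12:58227370-58230621, −log10 q 10.2) overlapped a 1481-bp H3K4me3 peak. Between 57 and 59 Mb this chromosome held 7 H3K4me3 members (1.27% of members) and 9 H3K27ac members (1.35%). The share of all listed peaks in this stretch is not given here, so these peaks cannot be called particular to lncRNA starts.

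Elsewhere, the H3K4me3 members with the highest −log10 q were at ENSG00000291079 on chromosome 5 (17.5), where 59.4% of the 32-base words of the peak occur more than once in the genome, and at ENSG00000226756 on chromosome 2 (12.1, 48.0% of words). ENSG00000260377 on chromosome 3 had the second strongest H3K27ac member (11.7), and it overlapped H3K4me3. ENSG00000258082 on chromosome 1 (10.0) and ENSG00000273980 on chromosome 10 (9.09) had strong H3K27ac members without H3K4me3 overlap. The wide H3K27ac members at LINC01714 (1823 bp, −log10 q 5.12) and LINC03033 (1764 bp, 6.42) also lacked H3K4me3, and both lay upstream of the start whose CG-poor window was given with the sequences. The wide H3K27ac member at ENSG00000253530 on chromosome 8 (1598 bp, 9.04), in contrast, overlapped H3K4me3. In all, 54 H3K4me3 members (9.78%) and 57 H3K27ac members (8.53%) had more than 50% multi-copy words. This share was not computed for the other peaks of either list, so it cannot be called high or low for lncRNA starts.

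Some starts held many separate peaks. The most members per gene were 6, at NEAT1 and at ARHGAP27P1-BPTFP1-KPNA2P3, a locus on chromosome 17 named for 3 pseudogenes, each with 3 peaks of either mark. LINC01962 and TRIM7-AS2 shared the same 5 peaks, among them an H3K4me3 peak of 1761 bp (chr5:180616203-180617963, −log10 q 9.92), and the window at LINC01962 held 41 CG. ENSG00000291126 on chromosome 2 also had 5. Most genes reached had fewer, with 1 member at 577 and at least 3 at 104 of the 914.

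Named lncRNAs of known role were then followed from a list. NEAT1, the scaffold of nuclear paraspeckles, had H3K4me3 peaks with a −log10 q of 4.58, 2.12 and 3.16 and H3K27ac peaks with 5.74, 3.17 and 3.09. The widest was the H3K4me3 peak at chr11:65191223-65192476, with 1254 bp. Peaks of both marks overlapped at the same 3 positions, 1 upstream and 2 downstream of the start. MALAT1, a nuclear speckle RNA next to NEAT1, had H3K27ac peaks with 2.04 and 2.46 and no H3K4me3 within 1 kb. Its nearest H3K4me3 peak began 1.86 kb from the start (chr11:65266975-65267654, −log10 q 3.11), so that MALAT1 counts as H3K27ac alone by the 1 kb limit.

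**Figure D5:**
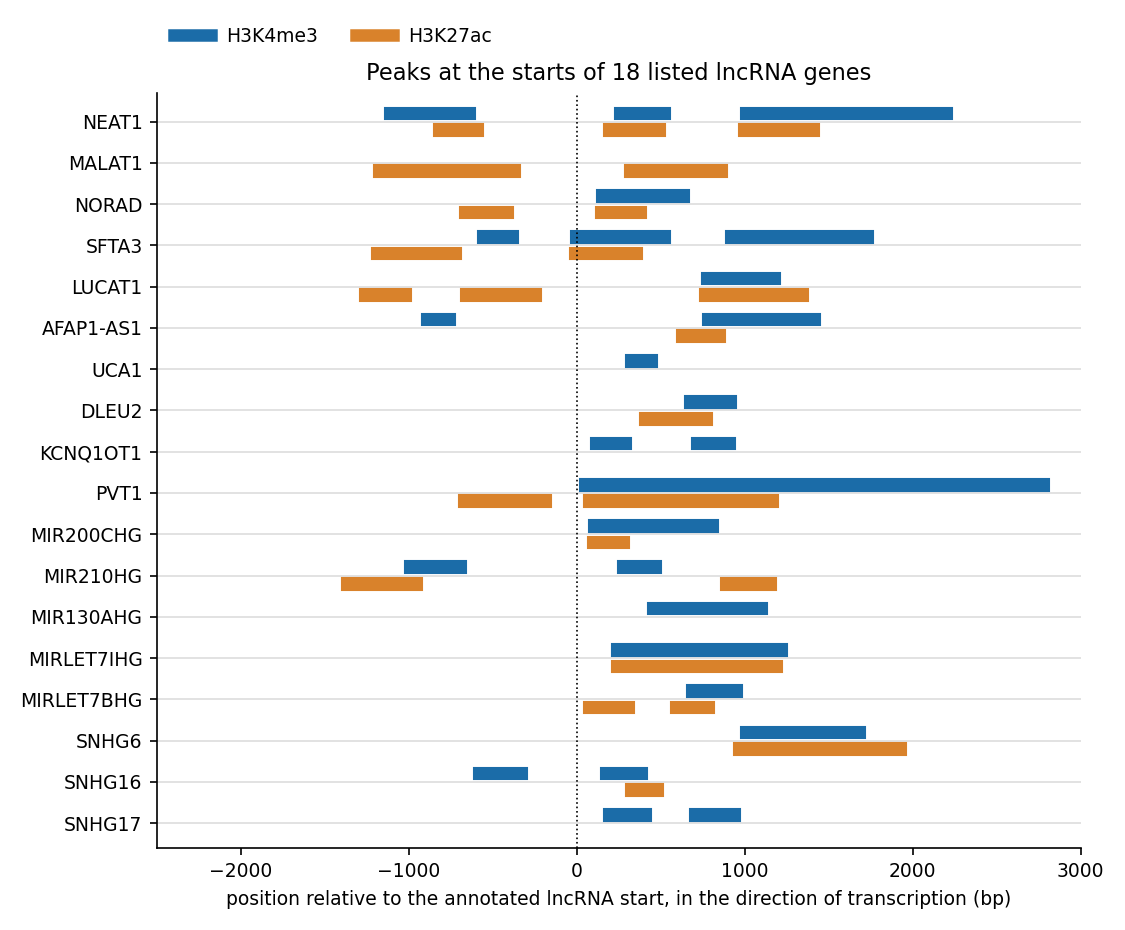
Peaks that met the rule at 18 listed lncRNA genes, drawn to scale by distance from the annotated start (horizontal axis, bp, positive in the direction of transcription), with H3K4me3 above and H3K27ac below each line. NEAT1 has 3 peaks of either mark around its start, MALAT1 has H3K27ac alone, and UCA1, KCNQ1OT1, MIR130AHG and SNHG17 have H3K4me3 alone.

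Among the marked hosts of small RNAs, 13 had both marks, 7 had H3K4me3 alone and 2 had H3K27ac alone. MIR200CHG, host of the epithelial miR-200c, had H3K4me3 with a −log10 q of 7.36 over 773 bp and H3K27ac with 5.12 over 245 bp. MIRLET7IHG, host of let-7i, had peaks of both marks from the same base, with 7.24 over 1041 bp and 2.82 over 1013 bp. At MIRLET7BHG, host of let-7b, the strongest peaks were 5.47 for H3K4me3 and 5.12 for H3K27ac. The 3 hosts thus carried overlapping peaks of both marks. MIR210HG, whose microRNA responds to hypoxia, had peaks of both marks on either side of its start, with 4.44 and 3.76 for H3K4me3 and 3.71 and 2.45 for H3K27ac. MIR130AHG had a strong H3K4me3 peak (8.78, 707 bp) and SNHG17 a pair (7.06 and 1.85), both without H3K27ac. MIR23AHG, MIR155HG, MIR181A1HG, MIR1915HG and SNHG25 also had H3K4me3 alone, the weakest at MIR155HG (1.34). H3K27ac alone was found at SNHG26 (3.32) and MIR3681HG (2.56). Hosts of small nucleolar RNAs with both marks were SNHG6, SNHG7, SNHG15, SNHG16, SNHG21 and SNHG29, among which SNHG6 had the strongest H3K4me3 peak (7.90) and SNHG16 the strongest H3K27ac peak (5.12). The H3K4me3 peak of SNHG15 held 63.6% multi-copy words. MIR497HG was marked as well, but its peaks lay within 3 kb of a protein-coding start and were not members.

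The other lists were short. SFTA3, which lies beside the lung transcription factor gene NKX2-1, had H3K4me3 peaks with a −log10 q of 5.53, 2.12 and 2.49 and H3K27ac peaks with 3.55 and 5.62. Its window was CpG-poor, with 7 CG, and peaks of both marks covered the start. A protein-coding gene of the same symbol is annotated next to it, 5692 bp away. LINC00261, an endoderm lncRNA beside FOXA2, had no peak within 1 kb, with the nearest H3K27ac peak 6.22 kb away. NORAD, induced by DNA damage, had H3K4me3 with 4.60 and H3K27ac with 4.29 and 2.85.

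Of 8 lncRNAs described in epithelial cancers whose starts passed the distance limit, 4 had H3K4me3, 4 had H3K27ac and 3 had both, against 4.17%, 4.67% and 1.87% of all starts. Named genes outside the systematic series had H3K4me3 at 12.7% and H3K27ac at 9.31% of 612 starts. The list was chosen by hand with earlier results of these data known, so its counts describe these genes only. LUCAT1 had H3K4me3 with 4.58 and H3K27ac with 2.91, 4.94 and 1.62, and multi-copy words made up 59.1% of its H3K4me3 peak and 56.5% of its strongest H3K27ac peak. AFAP1-AS1 (4.46 and 1.55 for H3K4me3, 2.76 for H3K27ac) and DLEU2 (2.97 and 3.55) had both marks. The weaker H3K4me3 peak of AFAP1-AS1 held 66.7% multi-copy words. UCA1 had a 182-bp H3K4me3 peak (2.23) and no H3K27ac, while LINC00963 had H3K27ac (2.50) and no H3K4me3. LINC00511, CYTOR and MIR31HG had neither mark within 1 kb. The nearest peak of either mark was 6.53 kb away at LINC00511, 97.8 kb at CYTOR and 887 kb at MIR31HG, so the absence at MIR31HG was shared by a long stretch around it. PVT1, next to MYC, had the widest H3K4me3 member, with 2790 bp over 11 summits and a −log10 q of 8.63, and H3K27ac peaks with 4.32 and 4.63. CASC8, the only other 8q24 lncRNA of the list that passed the distance limit, had neither mark, with the nearest peak of each mark 170177 bp away.

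Of 3 imprinted lncRNAs, 1 had H3K4me3 and 0 had H3K27ac, against 4.17% and 4.67% of all starts. This list too was chosen with earlier results known, and its counts describe its genes only. KCNQ1OT1, which silences neighbouring genes on the paternal allele, had H3K4me3 peaks near the lower limit of the list, with a −log10 q of 1.34 and 1.37, and no H3K27ac within 1 kb. H19 and MEG3 had neither mark. The 4 HOX lncRNAs examined (HOTAIR, HOTTIP, HOTAIRM1 and HOXA11-AS) all start within 3 kb of a protein-coding transcript start, so none of their peaks could be a member.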

How the data were processed

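Per the labels and the study's methods, the authors aligned reads to hg19 (GRCh37) with Bowtie 1.1.1 and called peaks with MACS2 2.1.0; SAMtools 1.2, Picard 1.118 and ChIPseeker 1.6.6 are also named. The input was kept for normalization, while the threshold and whether the input served as control in peak calling are not given in the sources used here. The deposited lists hold positions and a value without header, read from the numbers as the −log10 q of each summit (smallest value 1.306 for H3K4me3 and 1.303 for H3K27ac, against 1.301 for a q of 0.05). Entries with the same interval were joined, with the highest value kept. Positions are 1-based.

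Distances were measured from the peak edge to the outer 5′ end of each gene in GENCODE 44 lifted to GRCh37, the same build, with Python 3.11.15, pandas 2.3.3 and scipy 1.17.1. A start was marked when a peak lay within 1 kb. Exact Clopper-Pearson intervals treat neighbouring peaks and starts as independent. Multi-copy words are 32-base words, taken every 20 bases, that occur more than once in the genome. The distance and overlap functions were tested on simulated intervals. Lists of 1 library per mark allow no test.

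The named members were 5 per mark by −log10 q and 5 by width, the 5 genes with most members, and lists of known lncRNAs. The members, lists and motifs were chosen with earlier results of these data known. CCAT1, LINC00673 and LINC00959 were not found as lncRNA genes in this annotation, and TUG1 and TINCR are protein-coding in it. Alternatives were other distances, starts, overlaps and windows and the upper part of each list. The start sequences of some named genes are not reported here.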

Additional observations from a re-analysis of the deposited data

How the results depend on the processing

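No paired analysis was possible because only 1 library per mark was deposited, which also left no library to leave out. Of 78 alternative values for 16 results, 55 stayed within a factor of 1.5 (counts) or within the 95% interval (shares and medians). Member counts moved to 863 for H3K4me3 when only the outer starts of protein-coding genes were used, to 1018 for H3K27ac within 2 kb, and to 305 and 371 when only peaks at or above the median −log10 q of each list were kept. That restriction removes weak peaks, so median widths rose to 356 bp and 336 bp and median −log10 q to 4.127 and 3.551. Overlap with the other mark was 46.56% (H3K4me3) and 39.67% (H3K27ac) within 1 kb, and 24.82% and 20.96% with 50% of the peak covered. The share of starts with H3K4me3 was 3.163% with a peak within 500 bp, 4.9% within 2 kb, 2.514% above the median −log10 q, 6.884% for genes with more than 1 transcript and 3.733% without pseudogene-tagged genes. For H3K27ac it was 3.382%, 6.349%, 2.733% and 6.097% under the first 4 of these, and 4.22% for starts over 10 kb from protein-coding transcript starts. The CpG ratio at unmarked starts was 0.2309 over 500 bp on each side. The removal of multi-copy members, of pseudogene-tagged genes and of the stretches around AGAP2-AS1 on 12q and PVT1 on 8q was added after the data had been seen, and moved only the H3K4me3 share given above. Both the number of members and the share of starts marked rest on the chosen distances and on the unknown read depth, whereas the downstream position stayed within its interval in each of its 3 alternatives per mark.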
